A study of Mus musculus with 12 samples.

Results

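Astrocytes are the glial cells that take up glutamate and potassium released at synapses, pass water and metabolites between neurons and vessels, and supply lipids to other brain cells. When the surrounding tissue is damaged or inflamed they become reactive: they build more intermediate filament, of which Gfap is the classical subunit, and make secreted and immune proteins such as Serpina3n, Lcn2, Timp1 and C4b. In the hippocampus these genes are a standard readout of the glial response to neuronal disease. A set of 34 such genes, chosen by name as markers of astrocyte identity or reactivity, is described here across the hippocampus of mice that express a fragment of a splicing protein in their neurons. All 34 had an entry of their own among the 23352 gene entries of the series.

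The fragment is N40K, a truncated form of U1-70K, the protein of the U1 small nuclear ribonucleoprotein that Snrnp70 encodes. The 12 libraries fall into 4 groups of 3, all from mice on the C57BL/6J strain. The transgenic groups, 3 and 12 months old, came from the single line Tg396, in which a modified CaMKIIa promoter drives N40K in neurons, so that astrocytes are not the cells in which the transgene is meant to be expressed. The control groups, also 3 and 12 months old, were wild-type littermates without the transgene. The labels give neither the sex of the mice nor, for each library, the animal it came from, so the p-values measure the spread between libraries. Levels are FPKM, which scales fragments to transcript length and library size, from polyadenylated RNA of whole hippocampus. In such bulk RNA a lower level cannot be told apart from fewer astrocytes, or from less of that RNA in each.

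The libraries matched their genotype labels at Snrnp70, the gene of the protein of which N40K is a truncated form. Its entry was at 161 to 179 FPKM in 3-month wild type and 377 to 401 in 3-month N40K. At 12 months it was at 96.0 to 138 in wild type and 259 to 320 in N40K. Depth estimated from the steps between low values was 40.1 to 97.3 M (mega) reads per library. Libraries differed beyond their groups in several ways. Xist, which marks female mice, was at 13.5 to 17.3 FPKM in 3 libraries of the 3-month groups (wild-type replicates 2 and 3 and N40K replicate 3) and at 0.0113 to 0.112 FPKM in the other 9, which had reads of the Y-linked gene Ddx3y. Ttr, made by choroid plexus epithelium, ran from 25.2 to 5813 FPKM, and the summed level of 11 choroid plexus markers from 32.3 to 5978. The sample numbers in the library names fall into separate series for the ages, so age and sample series cannot be told apart. Sex was uneven between the ages, since every 12-month library was low in Xist.

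RNA of many of these genes was plentiful in every library, though bulk levels do not show which cells made it. Cst3, which encodes the secreted protease inhibitor cystatin C, was the highest of the 34 at a mean of 1347 FPKM over the 12 libraries. It was followed by Apoe, the lipid carrier, at 956 FPKM, glutamine synthetase (Glul) at 580 FPKM and clusterin (Clu) at 564 FPKM. The ranges of Glul and Clu over the libraries overlapped. The defining markers Aqp4, Aldh1l1 and Gfap were at 27.2, 21.2 and 83.1 FPKM, and none of the 34 genes was at 0 in all libraries. In all, 11 genes had a mean of at least 100 FPKM and 9 a mean under 10 FPKM. The lowest 4 were all reactive genes: Cd44, a hyaluronan receptor, at 0.803 FPKM, Timp1, a metalloproteinase inhibitor, at 0.612 FPKM, Lcn2, an iron-siderophore carrier, at 0.415 FPKM and the metalloreductase Steap4 at 0.221 FPKM. These 4 did not reach the 1 FPKM in at least 3 libraries required for testing, which leaves 30 genes tested. Replicates were close: over those 30 the median coefficient of variation within a group was 6.17%.

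**Figure D1:**
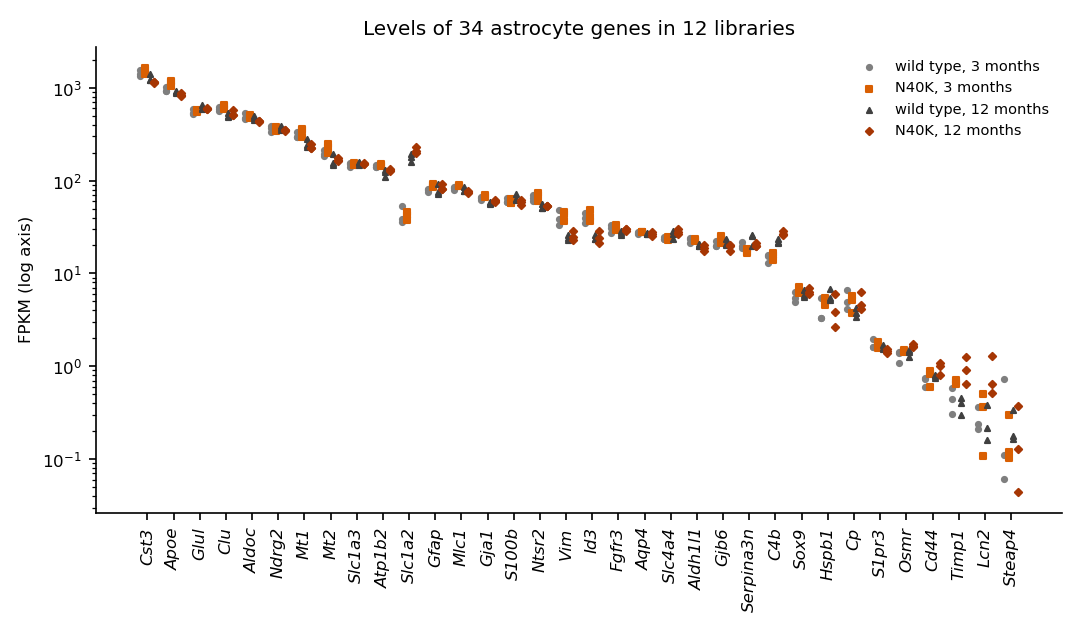
Level of each of the 34 genes in FPKM (log axis) in every library, ordered by mean, with a marker shape and colour for each group. The order runs from Cst3 at a mean of 1347 FPKM to Steap4 at 0.221, and the groups lie on top of each other for most genes.

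Does N40K in neurons come with a change in astrocyte RNA? For most of these genes no difference was detected and the data bound its size tightly. In limma with Benjamini-Hochberg adjustment over 13945 genes, 1 of 30 astrocyte genes (3.33%) passed an adjusted p of 0.05 at 3 months, against 11.4% of all genes (7.95% higher and 3.49% lower in N40K). At 12 months 1 of 30 (3.33%) passed, against 18.9% (11.2% higher and 7.71% lower). Averaged over both ages 2 of 30 (6.67%) passed, against 25.0% (15.5% higher and 9.54% lower). At an unadjusted p under 0.05 the counts were 4, 3 and 6. The shares of all genes at that threshold are not given here and cannot be below the adjusted ones. In each of the 3 comparisons the share of astrocyte genes that passed the adjusted p was below that of all genes, a gap that was not tested. The median difference over the 30 genes was 0.067 on the log2(FPKM + 1) scale at 3 months, 0.0095 at 12 months and 0.041 averaged, beside 0.020, 0.0066 and 0.014 for all genes.

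Precision was sufficient to bound most effects on the log2(FPKM + 1) scale. The folds given here are of FPKM + 1, which understates changes of low genes. At 3 months the 95% interval of the difference lay within 1.5-fold in either direction for 29 of 30 genes, the exception being the small heat shock protein gene Hspb1. At 12 months it did so for 28 of 30, the exceptions being Hspb1 and Cp, the gene of the copper ferroxidase ceruloplasmin. With both ages averaged it did so for all 30. The median standard error was 0.071 at either age. The 12-month difference of Hspb1 was -0.45 with an interval from -0.91 to 0.02, and that of Cp was 0.32 with an interval from -0.06 to 0.70.

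**Figure D2:**
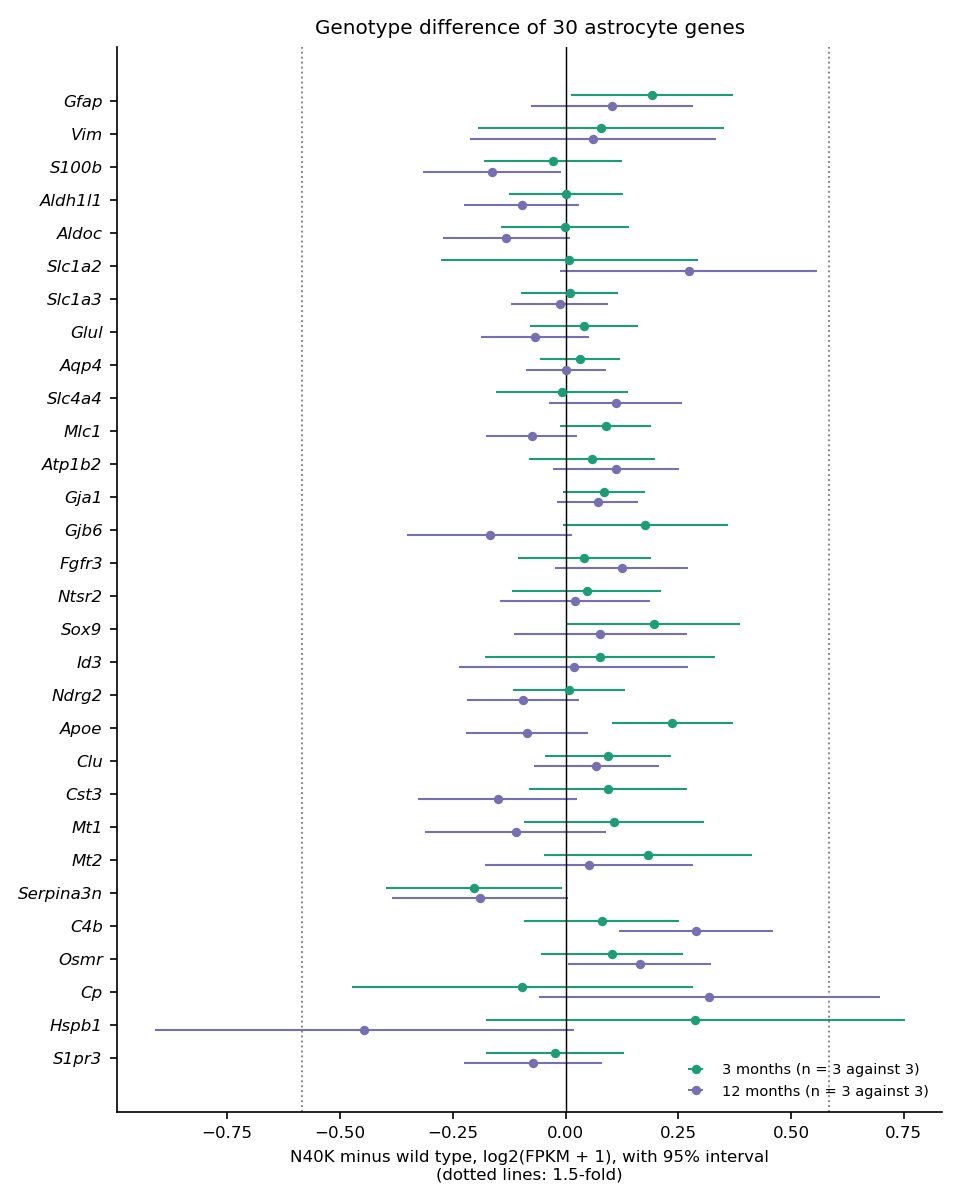
Difference between N40K and wild type for the 30 tested genes at 3 and at 12 months on the log2(FPKM + 1) scale, with the 95% interval of the limma model (3 libraries against 3) and dotted lines at 1.5-fold. The intervals of 29 genes at 3 months and of 28 at 12 months stay between the dotted lines, with Hspb1 outside at both ages and Cp at 12 months.

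Gfap, the filament protein by which astrogliosis is usually scored, differed little. Its levels were 74.8, 78.2 and 80.5 FPKM in 3-month wild type and 86.1, 91.3 and 89.7 FPKM in 3-month N40K. At 12 months they were 71.9, 92.0 and 75.5 FPKM in wild type and 81.9, 81.7 and 92.9 FPKM in N40K. The 3-month groups did not overlap and the 12-month groups did, with wild-type replicate 2 inside the N40K range. The difference was 0.19 ± 0.08 (SE, adjusted p = 0.169 by limma) at 3 months, with an interval from 0.01 to 0.37, and 0.10 ± 0.08 (adjusted p = 0.406) at 12 months, with an interval from -0.08 to 0.28. Averaged over both ages it was 0.15 ± 0.06 (adjusted p = 0.0863). The call at 3 months depended on the libraries in the model: the adjusted p was 0.0387 with each age fitted alone, and 0.0344 without wild-type replicate 2 of 12 months, a library that lends only its spread to this comparison. Without that library the 12-month difference was 0.21 (adjusted p = 0.0437).

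Vimentin (Vim), the filament subunit that joins Gfap in reactive cells, was at 33.6, 38.7 and 47.9 FPKM in 3-month wild type and 44.1, 45.6 and 36.7 FPKM in 3-month N40K. In the 12-month groups it was at 25.9, 23.2 and 24.0 FPKM in wild type and 22.8, 24.8 and 29.0 FPKM in N40K. The genotypes overlapped at both ages, with differences of 0.08 ± 0.12 (adjusted p = 0.749 by limma) and 0.06 ± 0.12 (adjusted p = 0.768). Vim is also expressed by vessel, ependymal and meningeal cells. The other cytoplasmic markers, the calcium-binding protein S100b, the folate enzyme Aldh1l1 and the glycolytic aldolase Aldoc, differed by -0.03 to 0.001 at 3 months and by -0.16 to -0.10 at 12 months, and none passed.

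The glutamate pathway was not called in either genotype comparison. Slc1a2, which encodes the main glutamate transporter of the adult forebrain, was at 35.7, 52.8 and 39.0 FPKM in 3-month wild type and 37.8, 46.3 and 42.8 FPKM in 3-month N40K, a difference of 0.01 ± 0.13 (adjusted p = 0.981 by limma). At 12 months it was at 157, 177 and 193 FPKM in wild type and 229, 197 and 209 FPKM in N40K. All 3 N40K libraries lay above the wild-type ones at that age, but the difference of 0.27 ± 0.13 had an interval from -0.01 to 0.56 and an adjusted p of 0.163. Its partner transporter Slc1a3 and Glul, which turns the captured glutamate into glutamine, differed by -0.07 to 0.04 at either age.

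Transport and coupling genes showed the same narrow range. The water channel Aqp4, which sits on astrocyte endfeet, was at 26.3, 28.2 and 27.5 FPKM in 3-month wild type and 28.2, 28.0 and 27.7 FPKM in 3-month N40K. In the 12-month groups it was at 26.4, 26.6 and 26.9 FPKM in wild type and 25.5, 26.6 and 27.9 FPKM in N40K. Its differences of 0.03 ± 0.04 and 0.00 ± 0.04 had intervals from -0.06 to 0.12 and from -0.09 to 0.09, the tightest bounds among the 30 genes. The bicarbonate transporter Slc4a4, the membrane protein Mlc1, the sodium pump subunit Atp1b2 and the gap junction connexin Gja1 lay between -0.08 and 0.11 at both ages. The connexin Gjb6 was 0.18 ± 0.08 higher at 3 months (adjusted p = 0.212 by limma) and 0.17 ± 0.08 lower at 12 months (adjusted p = 0.179), so neither passed.

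Among receptors and regulators, the neurotensin receptor Ntsr2, the growth factor receptor Fgfr3 and Ndrg2 differed by -0.10 to 0.12. Sox9, the transcription factor that specifies astrocytes, differed by 0.20 ± 0.09 at 3 months (adjusted p = 0.186 by limma) and by 0.08 at 12 months. Id3, a helix-loop-helix inhibitor of transcription, differed by 0.08 ± 0.12 and by 0.02.

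Apoe was the only astrocyte gene called at 3 months. It was at 933, 924 and 1016 FPKM in wild type and at 1049, 1179 and 1159 FPKM in N40K, groups that did not overlap. It was higher in N40K by 0.24 ± 0.06 (adjusted p = 0.0308 by limma), with an interval from 0.10 to 0.37. The call was lost at the same size, 0.24, without the filter on low values (adjusted p = 0.145) and with each age fitted alone (0.073). The call was also lost, at differences of 0.20 to 0.24, when any one of 5 libraries was left out: N40K replicates 2 (0.111) and 3 (0.101) and wild-type replicates 1 (0.098) and 2 (0.118) of 3 months, and N40K replicate 2 of 12 months (0.0526). Without the 3 libraries with Xist reads the difference was 0.25 (0.286), but that fit sets 1 wild-type against 2 N40K libraries of 3 months, assumes that the lone library varies like the others, and calls 0.982% of all genes. At 12 months Apoe was at 892, 924 and 870 FPKM in wild type and 815, 836 and 881 FPKM in N40K, a difference of -0.09 ± 0.06 (adjusted p = 0.355). The difference between the ages in the genotype effect, -0.32 ± 0.09, was not called (adjusted p = 0.166). The other secreted genes, Clu and Cst3, differed by 0.09 each at 3 months and by 0.07 and -0.15 at 12 months, and none passed.

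The complement gene C4b, which rises in glia in ageing and amyloid disease, was the only astrocyte gene called at 12 months. It was at 21.3, 21.6 and 23.3 FPKM in wild type and 26.8, 25.8 and 28.9 FPKM in N40K, so that all N40K libraries lay above all wild-type libraries, with a ratio of means of 1.23. The difference was 0.29 ± 0.08 (adjusted p = 0.0254 by limma), with an interval from 0.12 to 0.46. It was not called without N40K replicate 1 (0.0677) or 3 (0.0818), or without wild-type replicate 1 (0.0662) or 2 (0.0711) of that age, while its size stayed between 0.25 and 0.30 in those fits. At 3 months C4b was at 13.0, 15.6 and 15.5 FPKM in wild type and 16.8, 16 and 14.1 FPKM in N40K. These groups overlapped, with a difference of 0.08 ± 0.08 (adjusted p = 0.583). The effect at 12 minus 3 months, 0.21 ± 0.11 (adjusted p = 0.414), was not called, so a different effect at the ages was not shown. C4b and its neighbour C4a are near-identical copies, and how shared reads were divided is not given in the sources used here. C4a was at group means of 1.14, 1.08, 1.48 and 1.64 FPKM in 3-month wild type, 3-month N40K, 12-month wild type and 12-month N40K.

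Serpina3n, a secreted serine protease inhibitor and among the most strongly induced genes of reactive astrocytes, was lower in N40K when both ages were averaged. It was at 18.9, 21.6 and 19.8 FPKM in 3-month wild type and 16.6, 18.3 and 17.0 FPKM in 3-month N40K. At 12 months it was at 19.6, 25.6 and 25.0 FPKM in wild type and 19.9, 19.6 and 21.3 FPKM in N40K. The 3-month groups did not overlap and the 12-month groups did, with wild-type replicate 1 at the N40K level. The averaged difference was -0.20 ± 0.06 (adjusted p = 0.041 by limma), and the ratios of means were 0.862 and 0.866 at the 2 ages. C4b, the other reactive gene called in that average, was higher by 0.18 ± 0.06 (adjusted p = 0.0302). Over the settings tried, the averaged difference ran from -0.26 to -0.15 for Serpina3n and from 0.14 to 0.30 for C4b. Both averaged calls were marginal. That of Serpina3n was lost at differences of -0.20 without the filter (adjusted p = 0.0644), -0.19 with Xist (0.0684) and -0.18 with Ttr (0.0833) as a covariate, and at -0.16 to -0.20 without any one of 8 libraries: wild-type replicates 2 and 3 and N40K replicates 1 and 3 of 3 months, and wild-type replicates 2 and 3 and N40K replicates 1 and 2 of 12 months (0.0624 to 0.097). Without the 3 libraries with Xist reads, where the 3-month wild-type arm is a single library, it was -0.15 (0.308). That of C4b was lost without any one of 7 libraries: wild-type replicate 1 and N40K replicates 1 and 2 of 3 months, and wild-type replicates 1 and 2 and N40K replicates 1 and 3 of 12 months (0.0542 to 0.0681, at differences of 0.14 to 0.19). Without wild-type replicate 1 of 12 months, Serpina3n was called at each age, at -0.20 (adjusted p = 0.0469) and -0.31 (adjusted p = 0.011).

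Osmr, the oncostatin M receptor through which reactive genes are induced, was the only tested astrocyte gene whose N40K libraries lay above the wild-type ones at both ages, 3.33% of the 30 against 10.3% of all genes. It was at 1.08, 1.43 and 1.38 FPKM in 3-month wild type and 1.45, 1.43 and 1.49 FPKM in 3-month N40K, where the highest wild-type and the lowest N40K library differ only in the fourth digit. In the 12-month groups it was at 1.25, 1.5 and 1.41 FPKM in wild type and 1.64, 1.63 and 1.76 FPKM in N40K. The averaged difference was 0.13 ± 0.05 (adjusted p = 0.0784 by limma) and was not called. Of all 30 genes, 5 had groups that did not overlap at 3 months (16.7%, against 31.9% of all genes, of which 20.4% had N40K above and 11.5% below). Gfap, Mlc1, Apoe and Osmr were above and Serpina3n below. At 12 months 9 did (30%, against 38.8%, of which 21.3% above and 17.5% below). Slc1a2, Fgfr3, C4b and Osmr were above and S100b, Aldoc, Gjb6, Ndrg2 and Cst3 below.

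**Figure D3:**
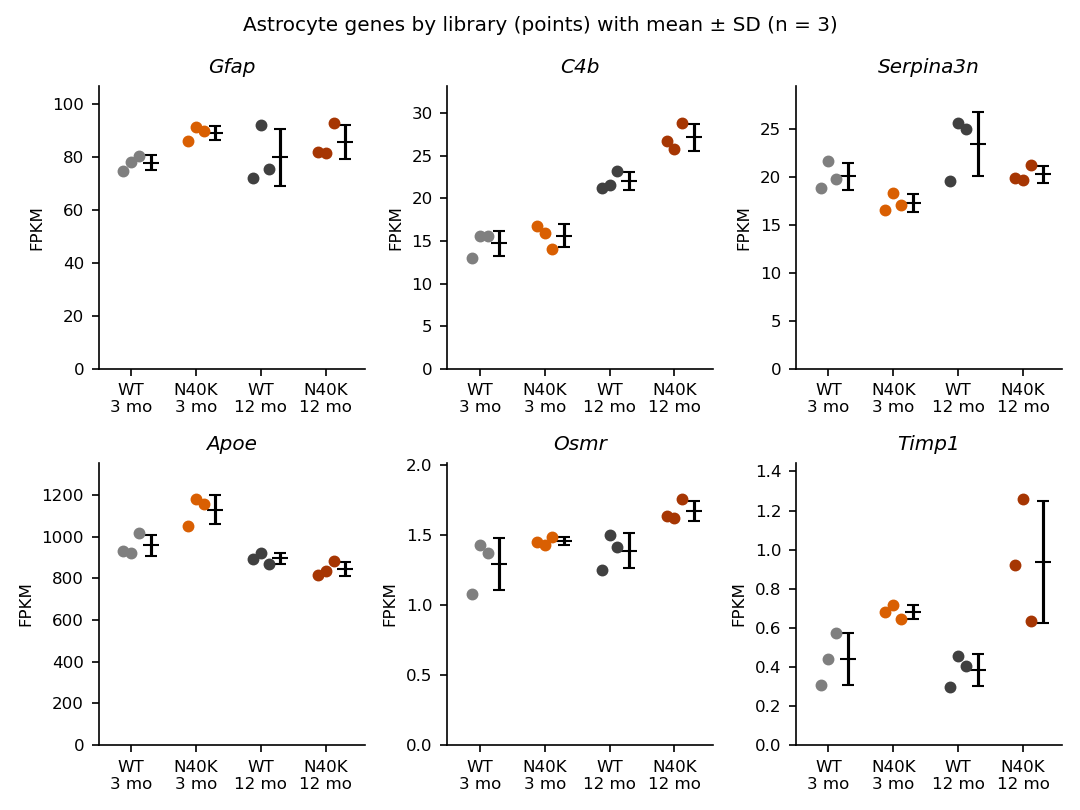
FPKM of Gfap, C4b, Serpina3n, Apoe, Osmr and Timp1 in each library (points, 3 per group) with the mean ± SD beside them. C4b separates by age and, at 12 months, by genotype; the mean of Serpina3n is lower in N40K at both ages; and Timp1, at 1.26 FPKM or less in every library, is higher in N40K at both ages.

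Of the reactive genes too low for the main test, Timp1 and Lcn2 are given after their values were seen. Timp1 was at 0.308, 0.442 and 0.576 FPKM in 3-month wild type and 0.682, 0.719 and 0.647 FPKM in 3-month N40K. At 12 months it was at 0.297, 0.456 and 0.405 FPKM in wild type and 0.920, 1.26 and 0.636 FPKM in N40K. At each age every N40K library lay above every wild-type library, as did 7.95% of the 21018 entries above 0, and the ratios of means were 1.55 and 2.43. These levels correspond to roughly 17 to 100.0 reads a library at the estimated depths. Tested without the filter, where 7.18% of 21018 genes passed at 3 months, 12.7% at 12 months and 17.7% in the average, the difference was 0.23 ± 0.11 at 3 months (adjusted p = 0.261 by limma), 0.47 ± 0.11 at 12 months (adjusted p = 0.0176) and 0.35 ± 0.07 averaged (adjusted p = 0.00982). The averaged call held in all 19 further settings tried (adjusted p 0.00277 to 0.0265). The 12-month call was lost without N40K replicate 1 (difference 0.47, adjusted p = 0.0585) or 2 (0.36, 0.0512) or wild-type replicate 1 (0.43, 0.055) of that age.

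Timp1 lies within an intron of the neuronal gene Syn1, on the opposite strand, and their exons do not overlap. The strand setting of the counting is not given in the sources used here. Syn1, which encodes synapsin, ran the other way at 12 months, at 126 to 139 FPKM in wild type and 106 to 113 FPKM in N40K. Its part in the level of Timp1 was not tested. Timp1 is also made by vessel and meningeal cells. At 12 months 4 of 13 endothelial and mural markers (30.8%, against 11.2% of all genes) were higher in N40K (Slco1a4 by 0.63 ± 0.08, Abcb1a by 0.35 ± 0.07, Flt1 by 0.32 ± 0.07 and Tie1 by 0.33 ± 0.09), and their summed level was 104 to 117 FPKM in wild type and 130 to 141 FPKM in N40K. At 3 months, where Timp1 was also higher in every N40K library, 0 of 13 were called by limma, with 0 at an unadjusted p under 0.05, and the sums overlapped at 150 to 174 and 151 to 180 FPKM. Of 9 meningeal markers 0 were called at either age, with 0 at an unadjusted p under 0.05. The part of these cells in the Timp1 difference was not tested.

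Lcn2 was at 0.237, 0.209 and 0.360 FPKM in 3-month wild type and 0.108, 0.362 and 0.499 FPKM in 3-month N40K. In the 12-month groups it was at 0.382, 0.159 and 0.217 FPKM in wild type and 0.521, 0.649 and 1.27 FPKM in N40K. The groups overlapped at 3 months and not at 12 months, where N40K replicate 3 was the highest. Without the filter the 12-month difference was 0.52 ± 0.15 (adjusted p = 0.0508 by limma), just above the threshold. It was called in 6 of 19 further settings: with the replicate number as a block (0.0424), median-ratio scaling (0.0465), Ttr as a covariate (0.019) or a pseudocount of 0.5 (0.0493), and without N40K replicate 1 of 12 months (0.0479) or of 3 months (0.0435). These levels correspond to about 6.5 to 76.0 reads a library. Cd44 and Steap4 differed by 0.14 ± 0.07 (adjusted p = 0.249) and -0.06 (adjusted p = 0.884) at 12 months. The remaining reactive genes, Cp, Hspb1 and the sphingosine receptor S1pr3, were not called in any genotype comparison. Cp and Hspb1 varied most between replicates among the tested genes, and Cp is also made by choroid plexus, whose markers differed widely between libraries as given above.

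The difference of the genotype effect between 12 and 3 months was called for 0 of 30 astrocyte genes by limma, beside 0.0645% of all genes. At an unadjusted p under 0.05 there were 4, and the share of all genes at that threshold is not given here. Those 4 were Apoe, Gjb6 (-0.35 ± 0.12, adjusted p = 0.229), Hspb1 (-0.73 ± 0.30, adjusted p = 0.297) and Mlc1 (-0.16 ± 0.07, adjusted p = 0.288). For each of the 4 the difference was positive at 3 months and negative at 12 months.

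Lists of related genes placed these members among other astrocyte genes. Of 49 tested further astrocyte genes, 3 were higher and 0 lower in N40K at 3 months (6.12%, against 11.4% of all genes), and 3 were higher and 6 lower at 12 months (18.4%, near the 18.9% of all genes). Hes5, a Notch target that holds neural progenitors undifferentiated, showed the clearest difference. It was at 5.80, 4.62 and 4.0 FPKM in 3-month wild type and 8.17, 7.73 and 9.40 FPKM in 3-month N40K, and at 3.54, 3.47 and 4.23 against 4.92, 5.74 and 5.43 FPKM at 12 months. It was higher by 0.71 ± 0.11 at 3 months (adjusted p = 0.00249 by limma) and by 0.43 ± 0.11 at 12 months (adjusted p = 0.0218), without overlap at either age. The cell adhesion gene Hepacam was higher by 0.12 at 3 months and by 0.11 averaged. The phospholipase gene Plcd4 was higher by 0.22 ± 0.05 at 3 months (7.03, 7.81 and 7.60 FPKM in wild type, 8.54, 8.93 and 9.20 in N40K) and lower by 0.15 ± 0.05 at 12 months (8.16, 8.71 and 8.21 FPKM against 7.40, 7.38 and 7.44). Both differences were called (adjusted p = 0.0128 and 0.0435 by limma), and the difference between them, -0.38 ± 0.07, was not (adjusted p = 0.0892). At 12 months Daam2 (0.17) and Cyp4f15 (0.25) were also higher. The radial glia lipid carrier Fabp7 (-0.28), Gldc (-0.21), Nkain4 (-0.20) and Mmd2 (-0.14) were lower, and the gliogenic transcription factor Nfia was too (-0.25 ± 0.06, adjusted p = 0.0107).

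Of 27 further reactive genes, 20 were tested. At 3 months 0 were called by limma, against 11.4% of all genes, with 2 at an unadjusted p under 0.05. At 12 months 2 were called (10%, below the 18.9% of all genes), both of them class I histocompatibility genes that many cell types express. H2-T23 was higher in N40K by 0.52 ± 0.15 (adjusted p = 0.0319) and H2-D1 by 0.35 ± 0.11 (adjusted p = 0.0397). The list's median difference at that age was 0.17, beside 0.0066 for all genes. Of 17 genes of the gp130 and STAT3 pathway, through which Osmr signals, 13 were tested. None was called at 3 months by limma, against 11.4% of all genes. At an unadjusted p under 0.05 there were 5, without a share of all genes to set beside them. At 12 months 1 was called (7.69%, below the 18.9% of all genes). It was the STAT inhibitor Pias3, higher by 0.22 ± 0.04 (adjusted p = 0.00457). The cytokine genes Il6, Lif and Osm and the feedback inhibitor Socs3 were below the filter. Microglial markers, whose cells also make C4b and Apoe, were called in 0 of 12 at 3 months. At that age 0 had an unadjusted p under 0.05. At 12 months 1 of 12 was called (8.33%, below the 18.9% of all genes), namely Tmem119, lower by 0.24. Neuron markers were lower in 4 of 10 at 12 months (40%, against 7.71% of all genes), among them Slc17a7 at -0.31 ± 0.06, with summed levels of 2753 to 2920 FPKM in wild type and 2505 to 2561 FPKM in N40K. Of 10 oligodendrocyte markers 0 were called at either age by limma, with 2 at an unadjusted p under 0.05 at each, and all 10 had negative differences at both ages (medians -0.15 and -0.16). The part of these cells in the astrocyte values was not tested.

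More of these genes were called between the ages than between the genotypes, and the age comparison carries the sample series with it. With Xist as a covariate 17 of the 30 genes (56.7%) were called with age, beside 50.1% of all genes. Among the 17 genes called without the covariate, Glul alone was lost. Without the 3 libraries with Xist reads, which leaves 1 wild-type library at 3 months, Glul differed by 0.08. Averaged over the genotypes, 17 of 30 astrocyte genes (56.7%) differed between 12 and 3 months, 5 higher and 12 lower, beside 60.6% of all genes (17.7% higher and 42.9% lower). Without the covariate the share was thus near the background. The median difference was -0.10, beside -0.09 for all genes. Of all genes called, 29.1% were higher at 12 months, a share that moved to 48.5% under median-ratio scaling, to 45.8% under quantile normalization and to 49.4% with the length trend removed. The median of all genes moved to -0.01 with median-ratio scaling. Small falls below are to be read against these shifts.

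Slc1a2 had the largest change. It rose by 2.17 ± 0.09 (adjusted p = 2.28e-08 by limma), a ratio of means of 4.57, from 35.7 to 52.8 FPKM in the 6 libraries of 3 months to 157 to 229 FPKM in the 6 of 12 months. The rise was 2.04 in wild type and 2.30 in N40K. It ranked 9 among the 13945 genes for the size of its rise. Slc1a3, which does the same work in the same cells, was at 140 to 156 FPKM at 3 months and 148 to 158 FPKM at 12 months, a difference of 0.04 (adjusted p = 0.359). All 6 libraries of 12 months lay above all 6 of 3 months for Slc1a2, while the ranges of Slc1a3 overlapped.

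The length of the transcript moved with age across all genes. The longest annotated transcript of Slc1a2 has 11595 bases, the only one of the 30 above 8000 bases. The median age difference of all genes went from -0.20 below 1000 bases through -0.12 at 2000 to 4000 bases to 0.31 at 8000 bases and above. Spearman's rho between length and age difference was 0.463 across 13049 genes and 0.531 across the 30 astrocyte genes, a description, since genes share their libraries. Of 166 genes at least as long as Slc1a2, 26 rose by at least 1, against 100 of all 13049. With the length trend of each library removed, Slc1a2 was higher by 1.81 (adjusted p = 8.82e-08). An antisense gene, Gm13872, overlaps an exon of Slc1a2, and without the strand setting their reads cannot be told apart.

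**Figure D4:**
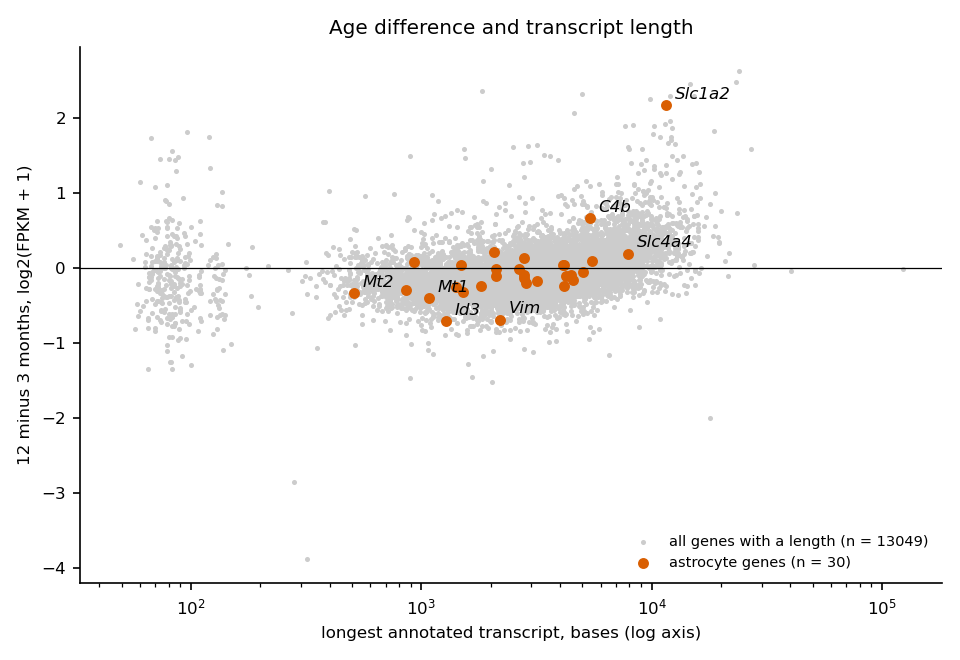
Age difference (12 minus 3 months, log2(FPKM + 1), averaged over genotypes) against the longest annotated transcript (log axis), with all genes in grey and the 30 tested astrocyte genes in orange. Slc1a2 stands apart at 2.17, and long transcripts lie higher than short ones across all genes.

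C4b rose with age by 0.66 ± 0.06 (adjusted p = 2.74e-06 by limma), a ratio of 1.62, and all 6 libraries of 12 months lay above all 6 of 3 months. Serpina3n rose by 0.21 ± 0.06 (adjusted p = 0.013), a ratio of 1.17. With the length trend removed both remained called, at 0.63 and 0.38. Glul and Slc4a4 rose by 0.13 ± 0.04 and 0.19 ± 0.05. Slc4a4 was at -0.01 (adjusted p = 0.874) with the length trend removed, and the call of Glul was lost without the filter (0.0534), with Xist as a covariate (0.147) and without the 3 libraries with Xist reads (0.246). Gfap, at -0.02 (adjusted p = 0.826), did not pass.

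Vim and Id3 fell most. Vim went from between 33.6 and 47.9 FPKM at 3 months to between 22.8 and 29.0 FPKM at 12 months, a fall of 0.69 ± 0.09 (adjusted p = 4.83e-05 by limma). Id3 ran from 35.3 to 48.1 FPKM and from 21.4 to 28.7 FPKM, a fall of 0.71 ± 0.08 (adjusted p = 2.47e-05). Neither range overlapped between the ages, and both were called with the length trend removed, at -0.53 and -0.51. Both genes are also expressed in vessel cells, and markers of such cells were measured beside them. Of 13 endothelial and mural markers 10 were lower at 12 months (76.9%, against 42.9% of all genes) and 1 higher, with a median of -0.29 (Tie1 at -0.75 ± 0.06, Vtn at -0.69 ± 0.10), and their summed level went from 150 to 180 FPKM down to 104 to 141 FPKM. Of 9 meningeal fibroblast markers 5 were lower (55.6%), among them Col1a2 at -0.94 ± 0.22, and of 8 ependymal markers 3 (37.5%). These shares were nearer to that of all genes. The medians of the meningeal and ependymal lists, -0.58 and -0.39, were however lower than that of the vessel markers, beside -0.09 for all genes. The part of these cells in the falls of Vim and Id3 was not tested.

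The metallothioneins, small cysteine-rich proteins that bind zinc and copper, fell together with age. Mt1 was at 337, 295 and 292 FPKM in 3-month wild type, 292, 357 and 349 FPKM in 3-month N40K, 242, 278 and 232 FPKM in 12-month wild type and 225, 225 and 245 FPKM in 12-month N40K. All 6 libraries of 12 months lay below all 6 of 3 months, and the fall was 0.41 ± 0.06 (adjusted p = 2.33e-04 by limma). Mt2 went from between 184 and 249.1 FPKM at 3 months to between 147 and 193 FPKM at 12 months, a fall of 0.34 ± 0.07 (adjusted p = 0.0022) in groups that overlapped. Mt3, the neural member of the family and not one of the 34 genes, had group means of 584, 604, 457 and 396 FPKM, an age ratio of 0.718 beside 0.753 for Mt1 and 0.790 for Mt2. Mt1 and Mt2 are short transcripts of 1085 and 511 bases, and with the length trend removed their differences shrank to -0.20 (adjusted p = 0.00734) and -0.14 (adjusted p = 0.0467). Neither gene differed detectably between genotypes: Mt1 by 0.11 and -0.11, Mt2 by 0.18 and 0.05 at 3 and 12 months. The plot of the age pattern by library shows both beside the glutamate transporters.

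**Figure D5:**
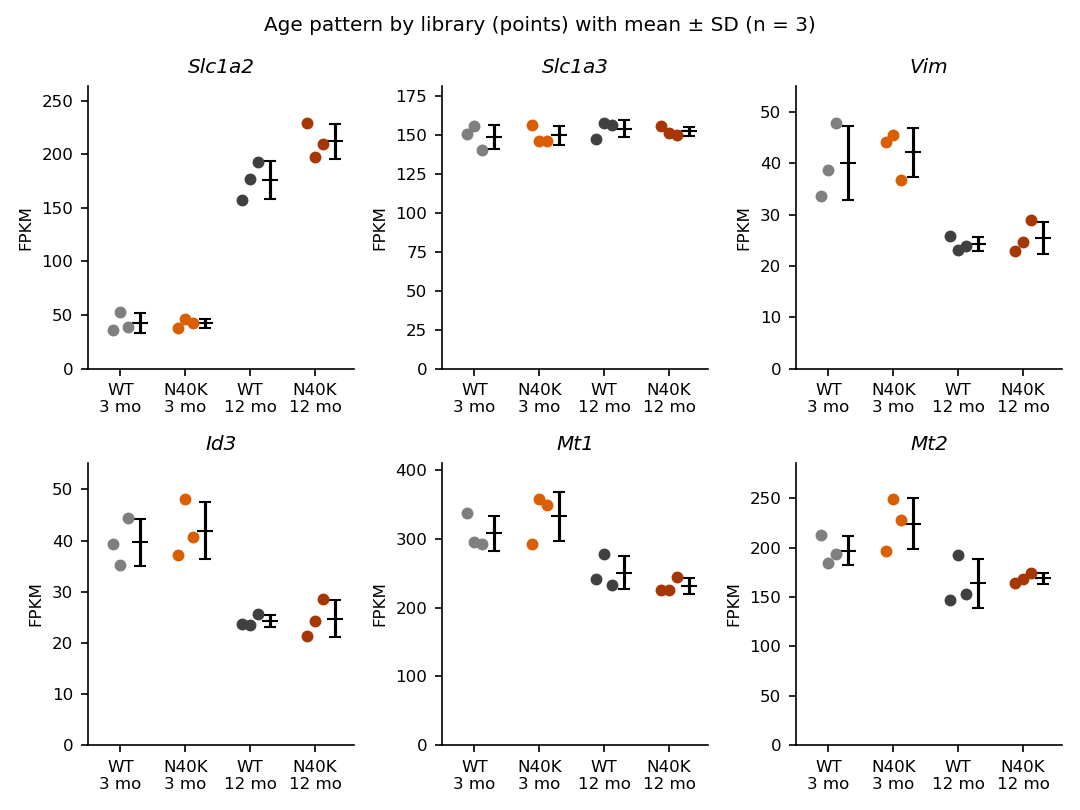
FPKM of Slc1a2, Slc1a3, Vim, Id3, Mt1 and Mt2 in each library (points, 3 per group) with the mean ± SD beside them. Slc1a2 rises from 35.7 to 52.8 FPKM at 3 months to 157 to 229 at 12 months while Slc1a3 stays between 140 and 158, and Vim, Id3 and Mt1 are lower in every 12-month library.

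Mt1 and Mt2 lie next to each other on chromosome 8 and are the textbook case of genes switched by a shared element, the metal response element, to which the zinc-sensing factor Mtf1 binds. The 250 bases before their RefSeq start sites (GRCm38.p6, plus strand, chr8:94178839-94179088 for Mt1 and chr8:94172368-94172617 for Mt2) are shown because these members moved together. Capitals mark matches to the core of that element, TGCACNC or TGCGCNC on either strand.
Mt1: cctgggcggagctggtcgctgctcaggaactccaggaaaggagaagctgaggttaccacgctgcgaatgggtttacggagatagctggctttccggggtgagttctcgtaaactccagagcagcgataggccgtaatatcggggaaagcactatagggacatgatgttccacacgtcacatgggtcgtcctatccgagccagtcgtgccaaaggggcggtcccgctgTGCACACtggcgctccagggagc
Mt2: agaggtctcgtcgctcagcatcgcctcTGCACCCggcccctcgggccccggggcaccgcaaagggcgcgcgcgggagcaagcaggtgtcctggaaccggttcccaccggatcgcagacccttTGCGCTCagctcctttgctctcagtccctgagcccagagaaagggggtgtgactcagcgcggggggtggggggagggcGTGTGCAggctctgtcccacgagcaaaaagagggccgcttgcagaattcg
Within these bases Mt1 holds 1 match, 23 bases before the start, and Mt2 holds 3, at 223, 128 and 50 bases. Sequence outside these windows, including that after the annotated starts, was not searched, so these are not the numbers of elements of each gene. A match occurs in 7032 of 32851 such windows (21.4%) and in 7 of the 37 windows of the 29 astrocyte genes that were searched (18.9%), so the presence of a match is common, and it is no evidence of binding. The STAT core TTCNNNGAA was found in 4 of the 37 windows (10.8%, against 7.02% of all windows), in Aldoc, Ntsr2, Slc1a3 and Steap4.

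The other falls with age were smaller. Ntsr2 fell by 0.32 ± 0.05, Cst3 by 0.29 ± 0.06, Apoe by 0.26 ± 0.04, Aldh1l1 and Clu by 0.24 each, Atp1b2 by 0.20, Gja1 by 0.17 and Mlc1 by 0.13, with adjusted p from 3.12e-04 to 0.00421 by limma. These are averages over the genotypes. Apoe fell by 0.10 in wild type and 0.42 in N40K, Cst3 by 0.17 and 0.41, and Mlc1 by 0.05 and 0.21. Ntsr2, Aldh1l1, Clu, Atp1b2 and Gja1 fell by 0.16 to 0.31 in wild type and 0.18 to 0.34 in N40K. As given above, no difference between the genotypes in the age change was called. Aldh1l1 remained called with the length trend removed, at -0.19, and the other 7 did not. Mlc1 and Atp1b2 were also not called with median-ratio scaling or quantile normalization, and Gja1 and Cst3 not with quantile normalization. With the length trend removed 11 of the 30 genes were called, 6 higher and 5 lower, beside 48.9% of all genes. Some of the 6 higher genes were not called in the model without that removal. Of the 49 further astrocyte genes 30 differed with age (61.2%, near the 60.6% of all genes), 6 higher and 24 lower, led by Nfia at -0.46 ± 0.04 and the phagocytic receptor Megf10 at 0.39 ± 0.04. In the gp130 pathway Lifr, the leukaemia inhibitory factor receptor, rose by 1.035 ± 0.057 (adjusted p = 1.52e-07). Its longest annotated transcript has 9655 bases, and genes of 8000 bases and above had a median age difference of 0.31. Nfia, with 9526 bases, is in the same class and fell. Megf10 has 7514 bases, in the class of 4000 to 8000 bases with a median of 0.022. Values of Lifr, Nfia and Megf10 with the length trend removed are not given here. Of the 20 tested further reactive genes 8 differed (40%, against 60.6% of all genes): 1 was higher at 12 months, complement C3, and 7 were lower, among them Cd14 at -0.33 ± 0.05 and H2-D1 at -0.44 ± 0.08.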

How the data were processed

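The authors deposited 1 table of FPKM (fragment numbers scaled to transcript length and library size), with 12 library columns. Per the labels, poly-A libraries were made with TruSeq kits and sequenced in pairs. CASAVA, STAR, BWA and the mm9 build are listed, without roles, in the submitters' processing notes. Counter, annotation and strand setting are not given in the sources used here. All 12 columns matched a library. Depth was estimated from the steps of low values of olfactory receptor genes. Since 50.8% to 71.0% of these came out whole within 0.02 of a read, no count test was run.

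The 13945 genes that reached 1 FPKM in 3 or more libraries were tested as log2(FPKM + 1), a scale that understates changes of low genes. One limma model (3.58.1, R 4.3.3) with a mean per group, eBayes with a trend and Benjamini-Hochberg adjustment over all genes gave 5 two-sided contrasts: genotype at each age (3 and 12 months) and averaged, the difference of the genotype effects, and age. Intervals are at 95% and unadjusted. The model was also run on simulated data with independent noise in each gene and library. That setting lacks the library differences described above, so it cannot show that the calls here are sound. The genes, lists and tests were chosen with earlier results of these data known. Values per library are given for genes called in a genotype contrast, or in age with a difference of at least 0.5, and for Gfap, Vim, Aqp4, Slc1a2, Serpina3n and C4b. Those of Osmr, Timp1, Lcn2, Mt1, Hes5 and Plcd4 are given after seeing them.

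Other settings tried were a pseudocount of 0.1 or 0.5; testing every gene above 0, or those with a mean of 5 FPKM or more; scaling libraries by median ratios or by quantiles; robust eBayes; a covariate for Xist or Ttr; a block for the replicate number; separate fits for the ages; and leaving out single libraries. Removal of each library's trend against transcript length (lowess, span 0.3), leaving out the libraries with Xist reads, and the tests of Timp1 and Lcn2 without the filter under the other settings were added after seeing the data. Transcript lengths and overlaps come from GENCODE M21 by symbol (92.8% of entries), which lies on another build than the values, as do the RefSeq promoters. Exons of 7 of the 34 genes (Aldh1l1, Slc1a2, Glul, Fgfr3, Mt2, Cp and S1pr3) overlap another annotated gene, so their values may include its reads.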

Additional observations from a re-analysis of the deposited data

How the results depend on the processing

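The number of astrocyte genes called at 3 months, 1 of 30, was 0 without the filter, 2 with Ttr as a covariate, and 0 to 2 when single libraries were left out. Without the 3 libraries with Xist reads it was 0, in a fit of 1 wild-type against 2 N40K libraries of 3 months that calls 137 genes of all 13945. The number at 12 months, 1, was 2 without the filter (12.7% of all genes called) and 3 with the Ttr covariate (16.6%). With single libraries left out it was 0 to 1 (9.7% to 18.7%). An unchanged number did not always mean the same gene. At 3 months, with each age fitted alone, the gene called was Gfap and not Apoe. At 12 months it was Gfap and not C4b without wild-type replicate 2 of that age. Without N40K replicate 3 or wild-type replicate 1 of 12 months, it was a gene lower in N40K. The averaged number, 2, was 6 with quantile normalization (24.2% of all genes called) and 1 with the Xist covariate (22.2%). It was 4 with the Ttr covariate (23.7%) and 0 to 2 with single libraries left out (19.6% to 25.0%). The number for age, 17, was 11 with the length trend removed (48.9% of all genes called). That for the difference of the genotype effects was 0 in every setting tried, beside at most 1.16% of all genes. The cause was not tested. Of 857 values of single genes under other settings, 784 kept their direction and side of the threshold, 50 lost a call, 11 gained one and 12 changed sign. The changes of sign concern values that were not called and lay near 0, and 1 called rise. The former are Slc1a2 at 3 months (-0.023 with median-ratio scaling, -0.012 with quantile normalization and -0.10 to 0.17 with single libraries left out), Vim at 3 months (-0.038 to 0.21 with single libraries left out) and at 12 months (-0.030 to 0.13), Aqp4 at 12 months (-0.031 with the length trend removed and -0.032 to 0.032 with single libraries left out). The latter is Slc4a4 with age, 0.19 in the model of all libraries and -0.0082 with the length trend removed.

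Replicate numbers did not pair the libraries: same-numbered wild-type and N40K libraries had deviations correlated at -0.456 to 0.197. With the replicate number as a block the counts of called genes were 1 at 3 months, 1 at 12 months, 2 averaged, 0 for the difference and 17 for age. In the same order, 9.39%, 16.8%, 23.6%, 0% and 60.1% of all genes were called. Among all genes the share of higher calls was 69.5% at 3 months (53.5% under median-ratio scaling, 54.4% after quantile normalization, 54.3% without the length trend), 59.2% at 12 months (51.6% with quantile normalization) and 61.9% averaged (52.9%, 49.8% and 51.4% in the order of the 3-month values). Reads were few for Timp1, Lcn2 and Steap4, with about 6.1 to 180.0 reads a library for Steap4. Cd44, also below the filter, had about 190 to 550 reads a library, beside 330 to 810 for the tested gene Osmr.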
